A study of Mus musculus with 6 samples.

Results

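Collagens, laminins, integrins and matrix proteases were examined in mouse liver from animals with and without Mul1, a ubiquitin and SUMO ligase of the outer mitochondrial membrane. The genes were taken by symbol from the table of differentially expressed genes of this study: every row whose symbol began with Col and a digit, Lama, Lamb, Lamc, Fbln, Itga, Itgb, Mmp, Timp and a digit, or Adam, with Col3a1 and Col6a3 left out. Of the 3542 genes in the table, 30 were kept: 7 named Mmp, 7 named Itga or Itgb, 6 named Col, 5 named Adam, 3 named Adamts and 2 named for laminin chains, while 0 rows were named Fbln or Timp. The rule used symbols only, but every row of the table had been chosen on the same 6 libraries for a difference between the genotypes, so each difference and each test here describes these libraries and is not independent evidence.

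Liver mRNA was sequenced from 3 wild-type Mul1(+/+) mice and 3 whole-body Mul1-deficient Mul1(-/-) mice. All 6 animals had eaten a high-fat diet (HFD) over 16 weeks, and livers from the normal diet were not analysed here. Sex and age of the 6 animals are not given in the labels, which call the tissue liver and the cell type hepatocytes, although pieces of whole tissue were used. Replicate numbers are those of the labels, and each library is taken as 1 animal.

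Values are normalized read counts, in which the study divided the reads of a gene by 1 factor per library. The targeted gene was checked first. Mul1 (ENSMUSG00000041241) had normalized read counts of 3172, 3232 and 3423 in the Mul1(+/+) libraries and 1037, 965 and 1753 in the Mul1(-/-) libraries, so that the knockout mean was 38.2% of the wild-type mean and the groups did not overlap. Its log2 fold change was -1.44 ± 0.40 (SE, n = 3 per group, limma adjusted p = 0.0126), outside the threshold used below, and from which part of the gene the remaining reads came was not tested. The genes of the table held 11932163 to 15385822 reads per library, of which 26641 to 110618 fell on the 30 genes. Genes of the mitochondrial genome took 10.7% to 13.4% of the reads of the table in Mul1(+/+) and 49.4%, 22.8% and 15.4% in Mul1(-/-) replicates 1, 2 and 3.

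The matrix around liver cells is sparse. Collagens form fibrils and, with laminins, the basement membranes of vessels and bile ducts, and integrins are the paired receptors through which cells hold on to them. Matrix metalloproteinases (Mmp genes) cut these proteins, ADAM proteins are membrane-bound relatives that mostly release other membrane proteins from the cell surface, and ADAMTS proteins are secreted proteases that cut proteoglycans and trim procollagens. In scarring of the liver, stellate cells and portal fibroblasts make most of the fibrillar collagen, whereas hepatocytes, endothelial cells and bile duct cells each make basement membrane parts.

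The matrix metalloproteinases held the steepest rise of the 30 genes and were split between directions, so their start regions are shown first. Mmp13, Mmp27 and Mmp7 lie in 1 cluster of metalloproteinase genes on the plus strand of chromosome 9 of GRCm38, at chr9:7272514-7283331, chr9:7571396-7581885 and chr9:7692090-7699585, and all 3 had higher means in Mul1(-/-). Mmp14 and Mmp15, membrane-type metalloproteinases on other chromosomes, had lower means. The 300 bases printed for each gene run from 250 bases before its RefSeq start to 50 bases after it on GRCm38.p6, on the plus strand, and thus hold promoter and the first transcribed bases. Capitals mark every TATA box (TATAAA) and every AP-1 site (TGANTCA, the motif of Fos and Jun factors), searched on both strands.
Mmp7 (chr9:7691840-7692139): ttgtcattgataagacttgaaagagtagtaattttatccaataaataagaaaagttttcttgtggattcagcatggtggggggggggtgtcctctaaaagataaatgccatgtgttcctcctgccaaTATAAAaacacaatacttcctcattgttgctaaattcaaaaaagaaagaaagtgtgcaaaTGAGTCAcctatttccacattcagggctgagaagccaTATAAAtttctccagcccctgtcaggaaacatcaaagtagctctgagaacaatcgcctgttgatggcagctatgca
Mmp13 (chr9:7272264-7272563): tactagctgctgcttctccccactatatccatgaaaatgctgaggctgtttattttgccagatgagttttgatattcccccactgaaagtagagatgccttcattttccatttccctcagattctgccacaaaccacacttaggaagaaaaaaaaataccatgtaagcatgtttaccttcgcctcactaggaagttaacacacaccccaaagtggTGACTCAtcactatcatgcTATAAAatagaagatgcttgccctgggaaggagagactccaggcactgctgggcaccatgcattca
Mmp27 (chr9:7571146-7571445): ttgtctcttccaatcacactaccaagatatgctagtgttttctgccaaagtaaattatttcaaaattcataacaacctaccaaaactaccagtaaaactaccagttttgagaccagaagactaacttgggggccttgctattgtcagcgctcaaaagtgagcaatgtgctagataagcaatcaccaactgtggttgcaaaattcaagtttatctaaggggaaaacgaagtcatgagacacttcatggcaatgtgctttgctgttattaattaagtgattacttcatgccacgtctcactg
Mmp14 (chr14:54431348-54431647): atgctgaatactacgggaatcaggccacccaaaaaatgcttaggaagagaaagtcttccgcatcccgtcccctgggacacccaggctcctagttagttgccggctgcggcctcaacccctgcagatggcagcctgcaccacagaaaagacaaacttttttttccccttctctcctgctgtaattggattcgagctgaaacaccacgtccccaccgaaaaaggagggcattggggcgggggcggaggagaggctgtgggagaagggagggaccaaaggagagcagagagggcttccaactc
Mmp15 (chr8:95352046-95352345): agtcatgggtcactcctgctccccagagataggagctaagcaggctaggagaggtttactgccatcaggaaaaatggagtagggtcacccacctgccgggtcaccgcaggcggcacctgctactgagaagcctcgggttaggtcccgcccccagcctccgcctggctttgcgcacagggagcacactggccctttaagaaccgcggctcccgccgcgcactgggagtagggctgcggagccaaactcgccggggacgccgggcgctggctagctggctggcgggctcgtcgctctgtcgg
The printed Mmp7 window held TATA boxes whose first bases were 123 and 26 bases before the start and an AP-1 site 63 bases before it. RefSeq gives Mmp7 another start, and its window (chr9:7692091-7692390, not printed) held neither motif. In the Mmp13 window the TATA box began 16 bases and the AP-1 site 35 bases before the start. Neither motif was found in the windows of Mmp27, Mmp14 and Mmp15. The G and C share was 38.7% to 43.7% in the printed windows of the 3 clustered genes and 52% in the other Mmp7 window. It was 56% for Mmp14 and 66% for Mmp15. The windows of Mmp23, which also had a higher mean, held neither motif and had G and C shares of 61% and 63.3%. Higher and lower genes of the family thus overlapped in G and C share. RefSeq windows were matched for 22 of the 30 genes, which have 26 windows because some genes have more than 1 start. Over these, AP-1 sites were in 4 windows (15.4%; Itga9, Itgax, Mmp13 and Mmp7) against 7.81% of all 32851 windows, TATA boxes were in 3 (11.5% against 13.6%), and GC boxes (GGGCGG) in 10 (38.5% against 35.7%), with E-boxes (CACGTG) in 1, the other Mmp7 window (3.85% against 7.15%). These are matches of letters in the reference genome, and binding was not measured.

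Across the 30 genes, transcripts of low abundance in wild-type liver were mostly higher in Mul1(-/-) HFD-liver, and the abundant ones were lower. Of the 30 genes, 21 had a higher mean and 9 a lower mean in Mul1(-/-). The threshold was a limma adjusted p under 0.01 together with a log2 fold change above 1 in size. It was passed by 11 genes, and 24.1% of the table passed the same threshold. Mmp7, Col4a5, Mmp27, Adamts10, Mmp23, Itgb2l, Adamts5 and Adam8 rose, 8 genes where 16.7% of the table rose, and Lamb3, Mmp15 and Mmp19 fell, 3 genes where 7.43% of the table fell. The 2 groups of libraries did not overlap for 26 of the 30 genes, against 90.3% of the table, and overlapped for Col27a1, Itga10, Adam11 and Mmp13. The median log2 fold change of the 30 genes was 1.68, beside 1.12 for all genes of the table, of which 56.8% were higher.

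The number of genes past the threshold rested on single libraries and on the scale, while no gene of the 30 changed direction. Without Mul1(-/-) replicate 3, 23 genes passed, and without Mul1(-/-) replicate 1, 7 passed. Leaving out any of the 3 Mul1(+/+) libraries left 1, which was Mmp7, and leaving out Mul1(-/-) replicate 2 left 0 by limma, where 25 of the 30 had an unadjusted p under 0.05. A rescaling of each library to the median ratio gave 2 that rose and 9 that fell, and a rescaling to the table total without mitochondrial genes gave 12 and 0, against 8 and 3 as deposited. The median ratio moved the median log2 fold change of all genes from 1.12 to 0.46. Under each of these settings 21 of the 30 genes kept a higher mean and 9 a lower one, with the same sign for each gene, and every exact permutation test of 3 against 3 libraries is limited to p = 0.1 or above. The rescalings could not have turned a sign, because every gene of the table lay further from 0 than they moved the median. Higher genes of the table began at a log2 fold change of 0.915 and lower genes at -0.943. Leaving out a library could have turned a sign only for Col27a1, Itga10, Adam11 and Mmp13, whose groups overlapped.

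**Figure D1:**
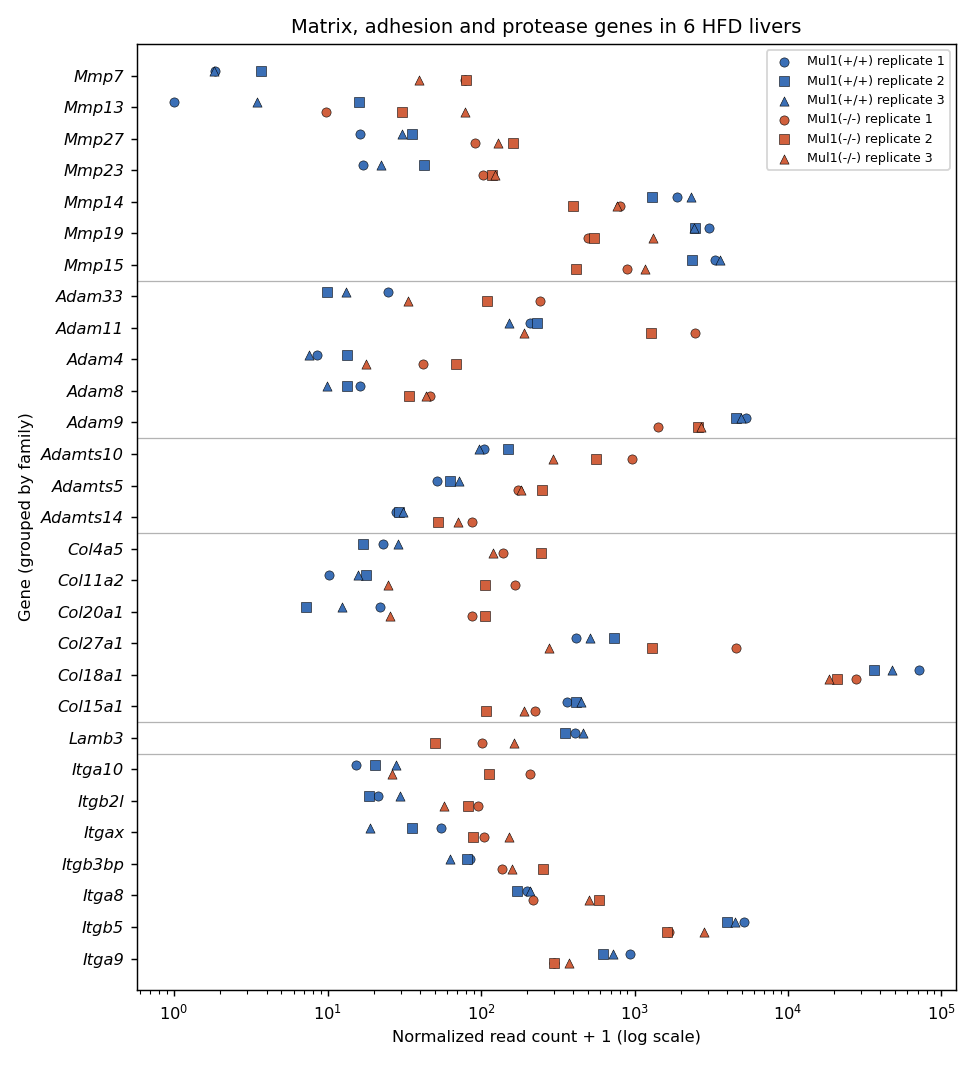
Normalized read count plus 1 (log axis) of 29 of the 30 genes in each of the 6 libraries, grouped by family. Blue symbols are Mul1(+/+), red symbols Mul1(-/-), and circles, squares and triangles are replicates 1, 2 and 3. The libraries of the 2 genotypes are apart except for Col27a1, Itga10, Adam11 and Mmp13, and Col18a1 lies furthest to the right, between 18633 and 71360.0.

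**Figure D2:**
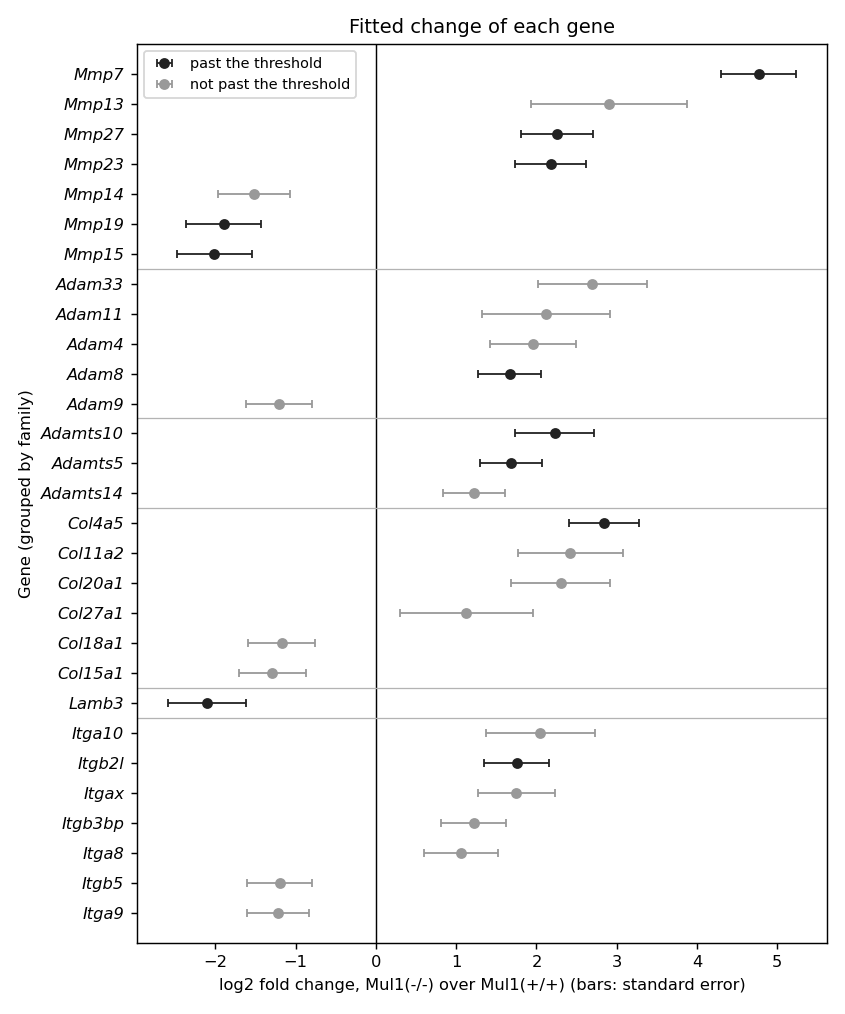
Fitted log2 fold change of 29 of the 30 genes, Mul1(-/-) over Mul1(+/+), with its standard error from limma (3 libraries per group). Black points are the 11 genes past the threshold, of which Mmp7 has the highest value (4.77) and Lamb3 the lowest (-2.10).

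Level and direction went together in the 30 genes as they did in the table. The selection of the table set part of this, because a gene very scarce in Mul1(+/+) could hardly enter it as lower. The Mul1(+/+) mean used for level is also part of the fold change. The 21 higher genes had a median wild-type mean of 26.3 normalized read counts and the 9 lower genes one of 2654, while the medians over all higher and all lower genes of the table were 56.9 and 1463. The protein-coding genes of the table were ordered by their Mul1(+/+) mean and cut into 5 level groups of like size. The lowest level group held 16 of the 30 genes and all 16 were higher, where 92.6% of that group was higher. The next held 6, of which 4 were higher (63.5% of that group), and the middle group held 2, of which 1 was higher (33.9%). The upper groups held 3 genes each, all lower, where 24.7% and 25.6% of those groups were higher. Summed over the 21 higher genes, the normalized read counts were 1343, 1722 and 1389 in Mul1(+/+) and 10162, 5695 and 2580 in Mul1(-/-). Summed over the lower genes without Col18a1 they were 20529, 16109 and 19458 in Mul1(+/+) and 5919, 6018 and 9500 in Mul1(-/-). Together the 30 genes took 0.491% to 0.719% of the reads of the table in Mul1(+/+) and 0.213% to 0.293% in Mul1(-/-), and these ranges did not overlap.

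**Figure D3:**
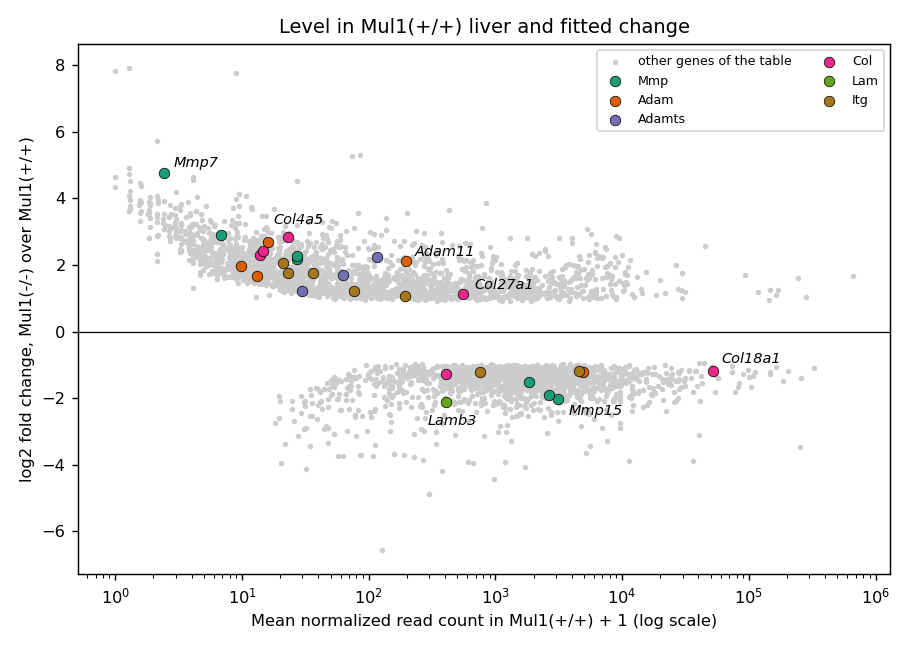
Mean normalized read count plus 1 in Mul1(+/+) (log axis) against the fitted log2 fold change, for 29 of the 30 genes in colour by family and for the other genes of the table in grey. The empty band around 0 is the selection by which the table was made, and the genes above it sit at the low end of the level axis (median over the 30 genes 26.3 against 2654 below it).

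Among the matrix metalloproteinases, Mmp7, Mmp27 and Mmp23, scarce in wild-type liver, rose, and the abundant Mmp15 and Mmp19 fell. Mmp13, also scarce, and Mmp14, also abundant, were outside the threshold, so that 5 of 7 passed, where 24.1% of the table did. Mmp7 encodes matrilysin, a small secreted protease of epithelia that lacks the hemopexin domain. Its normalized read counts were 0.84, 2.66 and 0.82 in Mul1(+/+) and 77.4, 78.4 and 38.6 in Mul1(-/-). The wild-type libraries held 5 Mmp7 reads in all and the knockout libraries 161, a rate ratio of 43.2 with a 95% exact counting interval of 18.1 to 134.8, which covers counting error only. The log2 fold change was 4.77 ± 0.47 (SE, n = 3 per group, limma adjusted p = 0.00039), and it ranked 8 from the top among the 3542 genes. It stayed between 4.60 and 5.10 when any library was left out, but with so few wild-type reads it depended on the pseudocount, being 5.13 with 0.5 and 3.39 with 5 in place of 1. Its exons overlap AV064505 on the opposite strand, and whether counting used strand is not given in the sources used here.

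Mmp27, a neighbour of Mmp7 in the cluster whose substrates are little known, had 15.2, 34.5 and 29.4 normalized read counts in Mul1(+/+) and 90.6, 160.4 and 127 in Mul1(-/-). All 3 knockout libraries were above all 3 wild-type libraries (log2 fold change 2.25 ± 0.45, limma adjusted p = 0.00692). Mmp23, which encodes a membrane-anchored protease, had 16.0, 41.6 and 21.2 in Mul1(+/+) and 102, 116 and 122 in Mul1(-/-). The knockout values of Mmp23 were the most even of the family, with a mean of 114 ± 10.2 (SD, n = 3), and the log2 fold change was 2.18 ± 0.44 (limma adjusted p = 0.00697). Mmp13, the main interstitial collagenase of rodents, was read less evenly, with 0, 15.1 and 2.45 in Mul1(+/+) and 8.77, 29.4 and 77.3 in Mul1(-/-). Mul1(+/+) replicate 2 was above Mul1(-/-) replicate 1, and the log2 fold change of 2.90 ± 0.98 did not pass (limma adjusted p = 0.0204, exact permutation p = 0.2) and was 1.90 with a pseudocount of 5.

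Mmp15, a membrane-type metalloproteinase, had 3327, 2376 and 3618 normalized read counts in Mul1(+/+) and 894, 418 and 1166 in Mul1(-/-). It fell by 2.01 on the log2 scale (SE 0.47, limma adjusted p = 0.00874), with every knockout library below every wild-type library. Mmp19, a secreted protease that cuts basement membrane proteins, had 3051, 2474 and 2436 in Mul1(+/+) and 497, 540.1 and 1328 in Mul1(-/-). Its log2 fold change of -1.89 ± 0.47 was the last inside the threshold (limma adjusted p = 0.00965). Mul1(-/-) replicate 3 held more than the other two knockout livers. Mmp14, the membrane-type protease that activates the gelatinase Mmp2 at the cell surface, had 1886, 1296 and 2337 in Mul1(+/+) and 798, 398 and 765 in Mul1(-/-), a log2 fold change of -1.52 ± 0.44 that did not pass (limma adjusted p = 0.0143). Within a library, where the scale cancels, Mmp14 over Mmp15 was 0.567, 0.546 and 0.646 in Mul1(+/+) and 0.892, 0.953 and 0.656 in Mul1(-/-), so Mmp14 was the less reduced of the pair in each knockout liver, narrowly in replicate 3 (exact permutation p = 0.1). Mmp15 over Mmp27 went from 219, 68.8 and 123 in Mul1(+/+) to 9.87, 2.60 and 9.16 in Mul1(-/-), a log2 difference of -4.27 (exact permutation p = 0.1). Mmp15 was lower and Mmp27 higher in every knockout library, so the separation of this ratio and its p were fixed beforehand. Per kilobase of the longest annotated transcript, the wild-type levels were ordered Mmp19 (780.1), Mmp15 (605), Mmp14 (568), Mmp23 (18.3), Mmp27 (13.9), Mmp13 (2.18) and Mmp7 (1.35), and the knockout levels were 232 for Mmp19, 202 for Mmp14, 161 for Mmp15, 79.2 for Mmp23, 66.3 for Mmp27, 60.7 for Mmp7 and 14.4 for Mmp13.

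Of the 8 ADAM and ADAMTS genes, Adamts10, Adamts5 and Adam8 rose, where 16.7% of the table rose, and the other 5 were outside the threshold. Means were higher in Mul1(-/-) for all but Adam9, although Adam11 overlapped the wild-type range. Adamts10 encodes a secreted protein that binds fibrillin microfibrils. Its normalized read counts were 104, 149.7 and 95.5 in Mul1(+/+) and 956, 556 and 292 in Mul1(-/-), a log2 fold change of 2.23 ± 0.49 (limma adjusted p = 0.00796). The groups were apart, and the spread was wider among the knockout livers (SD 334) than among the wild-type livers (SD 29.2). Adamts5, the main aggrecanase of mouse cartilage, had 50.6, 62.0 and 71.0 in Mul1(+/+) and 172, 247 and 180.1 in Mul1(-/-), with a log2 fold change of 1.69 ± 0.39 (limma adjusted p = 0.00835). Adam8, a sheddase of granulocytes and macrophages, had 15.2, 12.4 and 8.98 in Mul1(+/+) and 45.3, 33.1 and 43.0 in Mul1(-/-), with a log2 fold change of 1.67 ± 0.39 (limma adjusted p = 0.00892). Both were higher in each knockout liver than in any wild-type liver. Adamts14, which trims procollagens, had means of 28.5 ± 1.63 and 69.3 ± 17.4 (SD, n = 3) and a log2 fold change of 1.22 ± 0.39 that did not pass (limma adjusted p = 0.0175).

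Adam33, expressed in smooth muscle cells and fibroblasts, was the first gene outside the threshold (limma adjusted p = 0.0101). Its normalized read counts were 23.6, 8.86 and 12.2 in Mul1(+/+) and 239.6, 108 and 32.5 in Mul1(-/-), a log2 fold change of 2.70 ± 0.68 in which the first knockout liver was far above the third. Adam11, a neuronal member without protease activity, had 208, 231 and 151 in Mul1(+/+) and 2475, 1283 and 189 in Mul1(-/-). Mul1(-/-) replicate 3 lay within the wild-type range, and the log2 fold change of 2.12 ± 0.79 did not pass (limma adjusted p = 0.0276, exact permutation p = 0.3). Adam4, a member best known from testis, had 6.53 to 12.4 in Mul1(+/+) and 16.7 to 67.4 in Mul1(-/-) (limma adjusted p = 0.0119). As 39.1% of its transcript is shared in stretches of 50 bases with Gm4787 and Gm33242, its value is uncertain, and Gm4787 had 7.59, 15.9 and 9.80 in Mul1(+/+) and 29.2, 100.4 and 15.8 in Mul1(-/-). Adam9, a broadly expressed sheddase, was the abundant member, with 5347, 4568 and 4947 in Mul1(+/+) and 1422, 2580.4 and 2694 in Mul1(-/-). Every knockout liver was below every wild-type liver for Adam9, and the log2 fold change of -1.20 ± 0.41 did not pass (limma adjusted p = 0.0213).

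Of the 6 collagens, Col4a5 rose, where 16.7% of the table did, and the other 5 were outside the threshold. Col4a5 encodes a basement membrane chain of the kidney and other epithelia, whose loss causes Alport syndrome. It had 21.9, 15.9 and 27.8 normalized read counts in Mul1(+/+) and 139, 245 and 119 in Mul1(-/-), a log2 fold change of 2.84 ± 0.44 (limma adjusted p = 0.00428), and it was past the threshold under both rescalings. Col18a1, the source of endostatin and a basement membrane collagen that hepatocytes make in quantity, moved the other way. Its normalized read counts were 71360.0, 36449 and 47440.5 in Mul1(+/+) and 27762, 20914 and 18633 in Mul1(-/-). All knockout values were below all wild-type values, yet the wild-type livers spanned a wide range and the log2 fold change of -1.17 ± 0.42 did not pass (limma adjusted p = 0.0241). Col18a1 alone supplied 60.7% to 76.5% of the reads of the 30 genes in each library and was the highest per kilobase in both groups (9249 and 4010.1), followed in wild-type by Itgb5 (1393) and Adam9 (1225).

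Col15a1, the close relative of Col18a1 in the zone next to basement membranes, had 364, 413 and 444 in Mul1(+/+) and 224, 107 and 189.7 in Mul1(-/-) (log2 fold change -1.29 ± 0.42, limma adjusted p = 0.0188). The ratio of Col18a1 to Col15a1 within a library overlapped between the genotypes, from 88.3 to 196 in Mul1(+/+) and from 98.2 to 196 in Mul1(-/-) (log2 difference 0.12, exact permutation p = 0.8). The log2 ratio of Col18a1 to Col4a5 was 11.60, 11.07 and 10.69 in Mul1(+/+) and 7.63, 6.41 and 7.28 in Mul1(-/-), a log2 difference of -4.01 (exact permutation p = 0.1). Any factor applied to a whole library cancels in the plain ratios. It does not fully cancel in the log2 ratios, which were taken after 1 was added to each count. All 3 knockout livers lay below all 3 wild-type livers for Col18a1 over Col4a5. This and the p of the ratio were fixed beforehand, because Col18a1 was lower and Col4a5 higher in every knockout liver. Col11a2 and Col27a1 are fibrillar collagens known from cartilage, and Col20a1 belongs to the collagens that sit on fibrils. Col11a2 had 9.27 to 16.8 in Mul1(+/+) and 167, 105 and 23.7 in Mul1(-/-) (limma adjusted p = 0.0116), and Col20a1 had 6.20 to 21.1 and 86.2, 105 and 24.6 (limma adjusted p = 0.0114). Col27a1 had 416, 734 and 514 in Mul1(+/+) and 4587, 1294 and 276 in Mul1(-/-). Mul1(-/-) replicate 3 was the lowest of all 6 livers and replicate 1 the highest, with a log2 fold change of 1.13 ± 0.83 (limma adjusted p = 0.205, exact permutation p = 0.5) that ran from 0.15 to 2.17 as single libraries were left out.

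Among the laminin genes, Lamb3 fell. It encodes a beta chain of the laminin that anchors epithelia to the matrix beneath them. Its normalized read counts were 410.4, 349.8 and 458 in Mul1(+/+) and 100.8, 49.0 and 163 in Mul1(-/-). Every knockout liver was below every wild-type liver, and Mul1(-/-) replicate 2 was the lowest. The gene fell by 2.10 on the log2 scale (SE 0.48, limma adjusted p = 0.00839), to 25.7% of the wild-type mean, and stayed between -2.50 and -1.65 when single libraries were left out. Per kilobase of the longest transcript, its mean level went from 83.4 to 21.4.

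**Figure D4:**
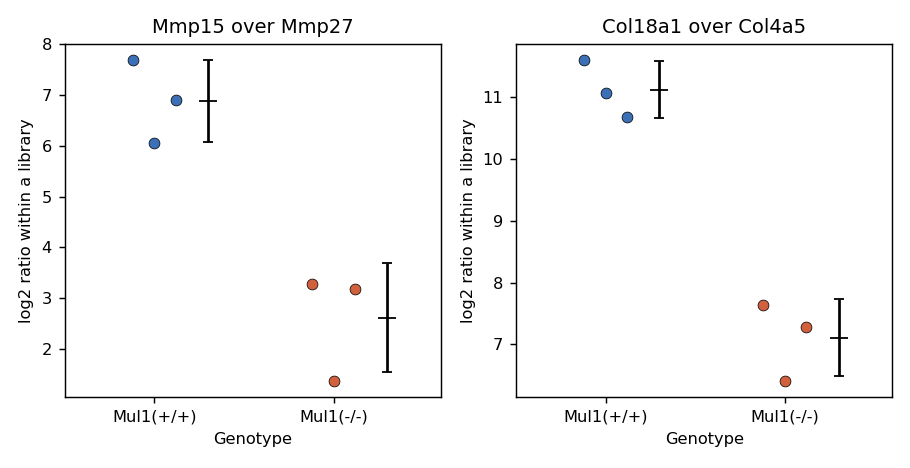
log2 of the ratio of Mmp15 to Mmp27 (left) and of Col18a1 to Col4a5 (right) within each library, by genotype. Points are libraries, and bars are the mean ± SD of 3 libraries. Each ratio is lower in all Mul1(-/-) livers than in any Mul1(+/+) liver, with mean differences of -4.27 and -4.01 on the log2 scale. The pairs were chosen after their values were seen. Each numerator was lower and each denominator higher in every Mul1(-/-) liver, so the separation was fixed beforehand.

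Of the 7 genes named Itga or Itgb, Itgb2l rose, where 16.7% of the table did, and 6 were outside the threshold. Itgb2l encodes a relative of the leukocyte beta chain Itgb2 and is known from neutrophils and their precursors. It had 20.2, 17.7 and 28.6 normalized read counts in Mul1(+/+) and 94.98, 80.8 and 56.2 in Mul1(-/-), a log2 fold change of 1.75 ± 0.41 (limma adjusted p = 0.00854). Itgax, or CD11c, an alpha chain of dendritic cells and macrophages, had 18.0 to 53.9 in Mul1(+/+) and 88.2 to 150.2 in Mul1(-/-), with a log2 fold change of 1.75 ± 0.48 (limma adjusted p = 0.0120), and 16.8% of its transcript is shared with Itgad in stretches of 50 bases. Itga10, a collagen receptor chain of cartilage, had 14.3, 19.5 and 26.9 in Mul1(+/+) and 207, 111 and 25.5 in Mul1(-/-). The third knockout liver was below a wild-type liver, the log2 fold change was 2.05 ± 0.68 (limma adjusted p = 0.0198, exact permutation p = 0.2), and 34.5% of the transcript is shared in stretches of 50 bases with Gm42957, a gene that overlaps it on the same strand. Itga8, the nephronectin receptor chain of stellate and smooth muscle cells, had 171 to 208 in Mul1(+/+) and 216, 584 and 506 in Mul1(-/-) (limma adjusted p = 0.0466).

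Itgb5, the beta chain of a vitronectin receptor, was the abundant integrin, with 5204, 4013 and 4495 in Mul1(+/+) and 1686, 1629 and 2824 in Mul1(-/-). Every knockout liver was below every wild-type liver, with a log2 fold change of -1.20 ± 0.40 (limma adjusted p = 0.0204). Itga9, a tenascin receptor chain, had 619 to 938 in Mul1(+/+) and 298 to 371 in Mul1(-/-), with a log2 fold change of -1.22 ± 0.38 (limma adjusted p = 0.0172). Itgb5 over Itgax within a library was 96.5, 116 and 250.1 in Mul1(+/+) and 16.3, 18.5 and 18.8 in Mul1(-/-), a log2 difference of -2.95 (exact permutation p = 0.1). With Itgb5 lower and Itgax higher in every knockout liver, the separation of this ratio and its p were fixed beforehand. Itgb3bp meets the symbol rule but is not an integrin: it encodes a centromere protein and coregulator of nuclear receptors. It had 62.1 to 84.3 in Mul1(+/+) and 136 to 251 in Mul1(-/-) (log2 fold change 1.22 ± 0.41, limma adjusted p = 0.0203), and it overlaps Pgm1 on the opposite strand, which had 236 to 241 and 351 to 1479 in the same libraries.

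In 8 of the 21 higher genes (38.1%), replicate 1 of Mul1(-/-) was above replicate 2 and replicate 2 above replicate 3, a share near that of the higher genes of the table (33.8%, which is 19.2% of all its genes). They were Adam11, Adam33, Adamts10, Col11a2, Col27a1, Itga10 and Itgb2l among others, and they were picked for this order after their values were seen. The mitochondrial share of reads took the same order in these livers (49.4%, 22.8% and 15.4%). So did the annotated genes of the table that are neither protein-coding nor of the mitochondrial genome. Of that set, 616 of 664 were higher, with a median difference over all 664 of 2.50, 2.35 and 1.15. The part of these in the values of the 8 genes was not tested. Without Mul1(-/-) replicate 1 the log2 fold change was 1.34 for Adam11, 0.15 for Col27a1 and 1.81 for Adamts10, against 2.12, 1.13 and 2.23 with it.

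**Figure D5:**
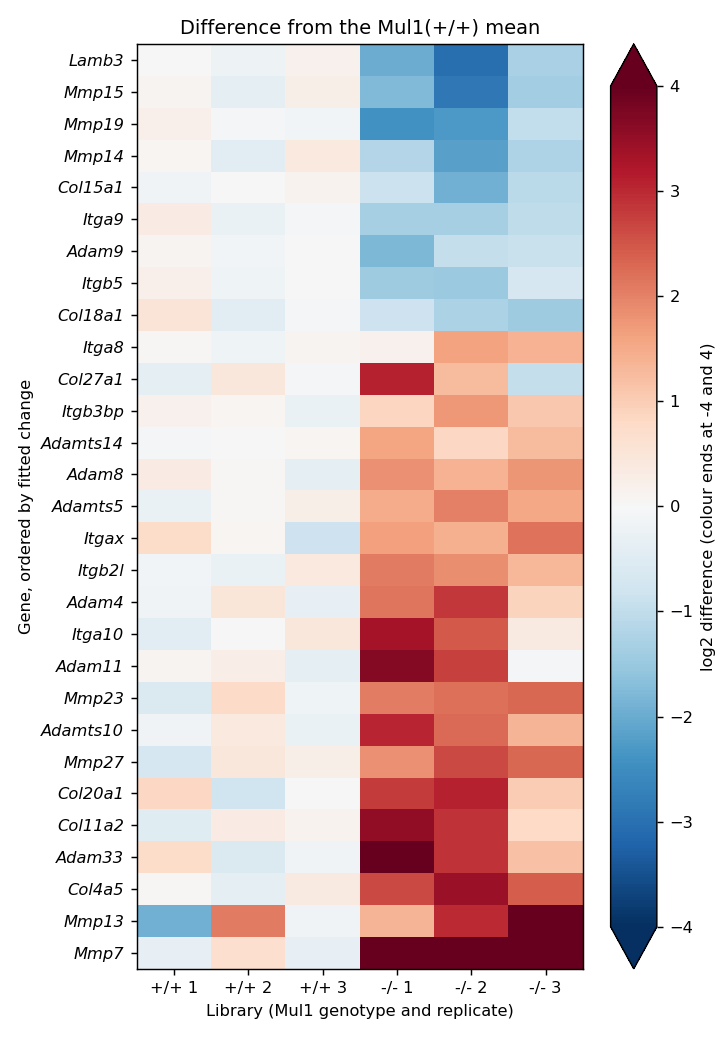
log2 difference of 29 of the 30 genes (rows, ordered by fitted log2 fold change) from its Mul1(+/+) mean in each of the 6 libraries (columns). Red is above and blue below the wild-type mean, and colours end at 4. Col27a1, Adam11 and Itga10 are deep red in Mul1(-/-) replicate 1 and pale or blue in replicate 3, whereas Mmp7, Mmp23, Mmp27 and Col4a5 are red in all 3.

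Other genes of the matrix and adhesion pathway were read from lists of genes, and most listed genes are not in the table and were not analysed here. These counts can be read against the 56.8% of the table that was higher, the 43.2% that was lower and the 24.1% past the threshold. Of 37 matrix glycoproteins and proteoglycans, 11 were in the table and 10 of these had higher means, with Hmcn2, a giant protein of basement membranes (log2 fold change 2.48, limma adjusted p = 0.00545), and Spp1, or osteopontin (1.66, limma adjusted p = 0.00889), past the threshold. Mgp, the matrix Gla protein (2.26, limma adjusted p = 0.0110), and Dpt, or dermatopontin (2.14, limma adjusted p = 0.0170), were outside it. The gene with a lower mean was Fn1, or fibronectin (-1.30, limma adjusted p = 0.0222), also outside it. Fn1 had 75388, 33963 and 52045 in Mul1(+/+) and 25386, 24471 and 14327 in Mul1(-/-), and was most of the summed counts of this list in each Mul1(+/+) library. Of 28 integrin adaptors and kinases, 6 were in the table and 5 had lower means. Vcl, which encodes vinculin and links integrins to actin, fell by 2.16 on the log2 scale (limma adjusted p = 0.00701), while Actn4 (-1.47) and Ptk2b (-1.44) did not pass. Of 17 matrix receptors that are not integrins, 4 were in the table, and Dag1, or dystroglycan, a laminin receptor, fell by 1.81 on the log2 scale (limma adjusted p = 0.00910). Sdc3 (-1.39) and Rpsa (1.26) did not pass.

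Of 20 matrix protease inhibitors and activators, 4 were in the table, and Furin, the convertase that activates membrane-type metalloproteinases, fell by 1.84 on the log2 scale (limma adjusted p = 0.0095), from 16472, 10329 and 13536 normalized read counts in Mul1(+/+) to 4780, 2209 and 4782 in Mul1(-/-). Pzp (-1.50) and St14 (1.18) were outside the threshold. Of 29 TGF-beta and CCN genes, 7 were in the table, 6 with lower means and 0 past the limma threshold (6 at an unadjusted p under 0.05), led by Ski (-1.73), Cyr61 (-1.52) and Smad6 (-1.49). The groups overlapped for Cyr61 (limma adjusted p = 0.0779), which had 443, 4308 and 761 in Mul1(+/+) and 241, 710 and 360 in Mul1(-/-). Of 27 genes for collagen processing and cross-linking, 4 were in the table and 0 passed the limma threshold (4 at an unadjusted p under 0.05), with Tgm2 at -1.47, Plod2 at 1.28 and Plod3 at -1.11. The median log2 fold changes of the lists were 1.55 for glycoproteins, -1.43 for adaptors, -0.19 for receptors, -0.17 for protease regulators, -1.24 for TGF-beta and CCN genes and -1.10 for collagen processing, beside 1.12 for the table.

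Markers of the cell types that make or carry these proteins were read the same way, and in pieces of whole liver fewer cells of a type and less RNA per cell cannot be told apart. Past the limma threshold were 3 bile duct markers of the 8 in the table and 0 of the hepatocyte, endothelial, macrophage, lymphocyte and neutrophil, or stellate cell and fibroblast markers, of which 4, 5, 2, 3 and 3 had an unadjusted p under 0.05, where 24.1% of the table passed. Hepatocyte markers were present as the label says: 4 of 20 were in the table, all with lower means (Cyp2f2, Hnf4a, Fga and Apob), and their summed normalized read counts were 459603 to 553007 in Mul1(+/+) and 158549 to 301302 in Mul1(-/-). Of 18 endothelial markers, 5 were in the table, all with lower means, summing to 6772 to 7139 and 2604 to 3734. Of 12 bile duct markers, 8 were in the table, 7 with higher means. Epcam (2.19, limma adjusted p = 0.00692) and Spp1 rose, Krt23 fell by 2.11 on the log2 scale (limma adjusted p = 0.00697), and the 8 summed to 1869 to 2596 and 5180.4 to 5919. Most of these sums was Spp1 (1109 to 1645 and 3336 to 4613), which is also among the matrix glycoproteins above. Krt19 (1151, 176 and 147) and Muc1 (359, 56.3 and 63.2) were highest by far in Mul1(-/-) replicate 1. Of 17 macrophage markers, Lyz2, Trem2 and Gpnmb were in the table with higher means that overlapped the wild-type range, summing to 2276 to 4060.4 and 3719 to 11370.2. Of 17 lymphocyte and neutrophil markers, 4 were in the table with higher means (80.0 to 164 and 352 to 469), and of 18 stellate cell and fibroblast markers, 4 were, with Dcn and Lum higher and Ngfr and Vipr1 lower (5499 to 7016 and 7423 to 25286). Most of these last sums was Dcn (3452 to 4335 and 5569 to 24011), and Dcn and Lum are also on the list of matrix glycoproteins. No marker of the table was at 0 in every library. The part of these cell types in the values of Mmp7, Lamb3, Itgb2l, Itgax or any other gene of the 30 was not tested.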

How the data were processed

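Liver mRNA of 3 Mul1(+/+) and 3 Mul1(-/-) mice on HFD was analysed. Per the labels and the methods, a commercial service made and sequenced the libraries, and the authors tested genotype by DESeq2 (Wald test). Aligner, genome build, annotation and strand setting are not given in the sources used here. The authors deposited normalized read counts for 3542 genes, with no pooling of replicates. The deposited log2 fold changes and each deposited p-value are the authors' own results and were not used here. In each library 100% of the values checked, which left out zeros and the highest values, were whole steps. The tolerance was 0.006, widened in proportion to the value. From the step, reads were recovered for depth and for the Mmp7 counting interval.

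A pseudocount of 1 was added, log2 was taken, and limma 3.58.1 in R 4.3.3 was fitted over all 3542 genes with genotype as the only term, without a filter on low values. The Benjamini-Hochberg adjustment ran over the table. Fold changes on this scale understate those of scarce genes. The threshold was an adjusted p under 0.01 together with a log2 fold change above 1 in size, as in the study's methods. Exact permutation tests were two-sided, on log2 values. Ratios were taken within a library for 5 pairs of genes chosen after their values were seen, and their log2 values after 1 was added to each count. limma was tested on simulated data. GENCODE M21 (GRCm38) gave positions, types and lengths (3529 identifiers matched, 13 not), and promoter windows from RefSeq on GRCm38.p6. Of the 30 genes, 29 are named, and 1 is not reported here on its own and stays in the counts. Values in all 6 libraries are given for those past or next to the threshold and for the most abundant and most changed of each family. They are also given for others singled out after their values were seen. From other lists at most the 3 genes with the largest change are named, or the markers in the table. The glycoproteins are the exception, where Spp1 and Fn1 are named too. The genes and lists were chosen with earlier results of these data known. Nothing in the labels beyond the replicate numbers ties libraries to separate cultures or batches, and p-values measure the spread between these 6 libraries. Alternatives were other pseudocounts, a filter, rescaled libraries, another prior, a replicate block, another threshold and the removal of each library. Other steps used Python 3.11.15 with scipy 1.17.1, pandas 2.3.3 and numpy 2.4.6, and plots matplotlib 3.10.9.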

Additional observations from a re-analysis of the deposited data

How the results depend on the processing

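No gene of the 30 changed sign under any alternative run. For the rescalings this was set in advance by the selection of the table. The filter, the other prior, the replicate block and the other threshold left each fold change as it was. Other pseudocounts and the removal of a library could have turned a sign only for Col27a1, Itga10, Adam11 and Mmp13, whose groups overlapped. With a pseudocount of 0.5, 1 of the 30 genes passed as lower and 172 in the table did, and with 5, 1399 genes of the table passed and 567 as lower. The median ratio left 2 of the 30 as higher and 9 as lower (table: 236 and 1030), of which 5 were called as deposited, and medians of 1.04 (all 30), 0.56 (integrin-named), 1.54 (Mmp) and 1.03 (Adamts). Rescaling by the total without mitochondrial genes left 0 as lower (table: 171). A prior that follows the mean gave 17, of which 5 were lower (table: 1869, with 964 higher and 905 lower). At an adjusted p under 0.05, 29 passed, 20 higher and 9 lower (table: 3380, 1877 and 1503). With a replicate block limma called 0 genes, also in the table, where 28 of the 30 and 3314 genes had an unadjusted p under 0.05, and the fit has fewer residual degrees of freedom. Deviations of same-numbered libraries from their group means correlated over genes by 0.02, 0.35 and 0.05 for replicates 1, 2 and 3, only replicate 2 correlated best with its own number, and the numbers were not taken as pairs. Leaving out single libraries gave 0 to 23 of the 30, 0 to 16 as higher and 0 to 7 as lower, while over all genes the counts ran from 10 to 2673, from 9 to 1595 and from 1 to 1078, lowest without Mul1(-/-) replicate 2 and highest without replicate 3. Mul1 itself passed with a pseudocount of 5 (-1.44), the median ratio (-2.10), the other prior (-1.44) and without Mul1(-/-) replicate 3 (-1.71, the lowest of -1.71 to -1.28 over the libraries left out). The filter changed no call of the 30. The planned edgeR and DESeq2 tests on recovered reads were not run, because the deposited values carry separators that left their unit unchecked. Depth limits the scarcest gene: Mmp7 had at most 3 reads in a wild-type library.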
